A study of Homo sapiens with 90 samples.

Results

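The genes described here are 34 genes of fatty acid oxidation and targets of peroxisome proliferator-activated receptor alpha (PPARA), followed in HepaRG cells over 9 concentrations of fenbuconazole, imazalil and 2,4-D. They were listed by name, with earlier results of these data known. Their counts below thus do not test the list against the shares of all genes. Each gene was read through its brightest probe set that carried 1 gene symbol. Of the 34 genes, 32 had such a probe set among the 19774 genes measured this way; ACSL3 and ACOT2 had none and have no value here. HepaRG is a human liver line that can form hepatocyte-like and biliary-like cells. The cultures were plated on collagen, kept in maintenance medium, moved to induction medium and then exposed for 24 h, all in 0.2% DMSO. Fenbuconazole is a triazole fungicide, imazalil an imidazole fungicide, and 2,4-D (2,4-dichlorophenoxyacetic acid) a chlorophenoxy herbicide, each given at 9 concentrations from 0.001 to 10 µM in steps of about 3-fold, with 3 arrays per concentration, coded P1, P2 and P3 here after a code in their labels. The vehicle group was 3 arrays with 0.2% DMSO and no chemical, which were normalized once with each chemical, so that comparisons with DMSO share these 3 arrays across chemicals and concentrations. By the study's methods the replicates were separate experiments on separate batches of cells. The p-values rest on the spread of arrays within groups, pooled over a fit (for slopes, the spread around the line). That spread includes any difference between batches, and the fits hold no term that pairs arrays across groups. What the P code marks is not stated.

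In the liver, fatty acids are bound by FABP1 in the cytosol, joined to coenzyme A by acyl-CoA synthetases, carried into mitochondria by the carnitine system (CPT1A, SLC25A20, CPT2) and shortened by repeated rounds of dehydrogenation, hydration, oxidation and thiolysis. Electrons taken from the acyl chain pass through ETFA, ETFB and ETFDH to the respiratory chain, peroxisomes begin the breakdown of very long and branched chains, and the acetyl-CoA formed can leave the hepatocyte as ketone bodies. PPARA is a nuclear receptor that binds fatty acids, pairs with RXR on a direct repeat of the half-site AGGTCA spaced by 1 base, and raises many of these genes in fasting.

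The letters of that element were searched, on both strands, in the 250 bases before the start of each gene in RefSeq promoters of GRCh38.p14, where 28 of the 34 genes had an entry (CRAT, DECR1, ETFDH, ACOX2, EHHADH and ACAA1 had none). The half-site AGGTCA stood in 3 of the 28 (ACSL5, FABP1 and CREB3L3), against 12.08% of the 35116 promoters in the table. A listed gene was counted once if any of its promoters matched, while the share of all was counted per promoter. The spaced repeat AGGNCANAGGNCA, which may include the half-site, stood in 1 of the 28 (CREB3L3), against 0.2677% of all, and the exact repeat AGGTCANAGGTCA in 0 of the 28 and in 6 of all. Printed below are the promoters of FABP1 (on the minus strand, chr2:88128063-88128312), CREB3L3 (plus strand, chr19:4153381-4153630) and ANGPTL4 (plus strand, chr19:8363905-8364154). FABP1 was the member that was higher with fenbuconazole, CREB3L3 the 1 member with the spaced repeat, and ANGPTL4 the member that fell most with fenbuconazole. Each is given 5′ to 3′ along its gene, with the matched letters in capitals and the rest in lower case.
FABP1: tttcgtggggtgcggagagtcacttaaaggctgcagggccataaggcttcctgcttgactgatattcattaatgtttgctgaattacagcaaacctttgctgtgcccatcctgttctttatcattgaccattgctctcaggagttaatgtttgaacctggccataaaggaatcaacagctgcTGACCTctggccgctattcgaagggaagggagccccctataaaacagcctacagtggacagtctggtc
CREB3L3: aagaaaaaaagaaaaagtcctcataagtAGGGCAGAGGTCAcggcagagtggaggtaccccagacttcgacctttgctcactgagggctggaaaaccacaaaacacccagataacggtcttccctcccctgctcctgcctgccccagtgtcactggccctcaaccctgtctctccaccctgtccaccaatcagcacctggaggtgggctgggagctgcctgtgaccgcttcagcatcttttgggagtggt
ANGPTL4: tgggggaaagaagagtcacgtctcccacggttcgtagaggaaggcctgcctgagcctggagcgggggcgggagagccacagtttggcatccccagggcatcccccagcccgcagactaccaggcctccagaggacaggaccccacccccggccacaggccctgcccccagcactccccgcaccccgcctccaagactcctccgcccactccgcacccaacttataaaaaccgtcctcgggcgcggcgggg
The FABP1 match began 68 bases before the start and is read on the opposite strand, the CREB3L3 repeat (AGGGCAGAGGTCA) began 222 bases before it, and ANGPTL4 had none of these letters in this window. A match describes the letters and shows no binding.

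Levels are RMA values on a log2 scale, on which a difference of 1 is a doubling, and a change is the difference of 2 group means. Array medians over all probe sets lay between 2.81 and 2.97. In the DMSO arrays the hepatocyte markers ALB (13.19 to 13.29), APOA1 (12.14 to 12.20) and SERPINA1 (13.26 to 13.29) were high, as were 5 of the 9 measured biliary markers, CD24 (10.54 to 10.60), KRT19 (9.93 to 10.01), SPP1 (7.75 to 8.18), SOX9 (5.31 to 6.27) and MUC1, while KRT7 (2.46 to 3.01), EPCAM, CFTR and CLDN4 lay near or below the array median. Of the mesenchyme markers DCN (8.85 to 9.22), ACTA2 (8.58 to 8.64), LUM (6.59 to 7.66) and COL3A1 (6.44 to 6.65) were highest. The mesenchyme markers COL1A1 and PDGFRB were lower but above the array median, and COL1A2 and THY1 lay near it. In the endothelium list KDR (5.23 to 5.78) and in the immune list CD14 (6.38 to 6.57) lay far above the median, and the defining markers CDH5 (2.15 to 2.38) and PTPRC (2.26 to 2.36) below it. As the arrays hold the RNA of whole wells, fewer cells of a type and less RNA per cell cannot be told apart. Exposure to fenbuconazole and imazalil could be read in these wells from CYP1A1, a target of the aryl hydrocarbon receptor. At 10 µM CYP1A1 was higher than in DMSO by 2.35 with fenbuconazole and 5.41 with imazalil (limma adjusted p = 1.33e-08 and 2.93e-14). With 2,4-D it differed by 0.20 (adjusted p = 0.958), so that it did not show exposure to 2,4-D.

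Few of the oxidation genes changed with any chemical, and those that did changed at 10 µM by less than a doubling. Against DMSO, 1 of the 32 genes passed limma's test (Benjamini-Hochberg adjusted p under 0.05 over all 19774 genes) with 10 µM fenbuconazole, where 0.607% of all genes passed, and this was ANGPTL4, which fell (0.172% of all genes passed downward). With 10 µM imazalil 0 of the 32 passed, where 0.819% of all genes passed, and with 10 µM 2,4-D 0 of the 32, where 0% passed. At an unadjusted p under 0.05 the counts at 10 µM were 6 with fenbuconazole, 6 with imazalil and 3 with 2,4-D, or 18.75%, 18.75% and 9.38% of the 32, where 7.67%, 9.98% and 5.63% of all genes passed. At the 8 concentrations from 0.001 to 3 µM, 0 of the 32 passed with any of the chemicals, where 0%, 0.00506% or 0.0556% of all genes passed, and 0 to 4 of the 32 (0% to 12.5%) had an unadjusted p under 0.05, where 3.51% to 9.50% of all genes had one.

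Against the 15 arrays of the 5 lowest concentrations of the same chemical (0.001 to 0.1 µM), a reference that does not rest on the shared DMSO arrays, 10 µM fenbuconazole lowered ANGPTL4, PLIN2 and ACAA2 and raised FABP1, which makes 4 of 32 where 2.05% of all genes passed (1.12% downward, 0.931% upward). Imazalil at 10 µM raised ACSL1, 1 of 32 where 2.71% passed (1.39% upward), and 2,4-D changed 0 of 32 where 0.445% passed. At an unadjusted p under 0.05 the counts were 8 with fenbuconazole, 12 with imazalil and 6 with 2,4-D, or 25%, 37.5% and 18.75% of the 32, where 10.1%, 13.1% and 9.94% of all genes passed. The median change of the 32 against this reference was -0.06 with fenbuconazole, 0.01 with imazalil and -0.02 with 2,4-D, beside -0.01, 0.01 and 0.00 over all genes. At 0.3, 1 and 3 µM, 0 of the 32 passed against the same reference, where 0%, 0.00506%, 0.0253% or 0.137% of all genes passed, and 0 to 5 (0% to 15.6%) had an unadjusted p under 0.05, where 2.44% to 10.8% of all genes had one. A slope on log10 concentration over the 27 treated arrays passed in 0 of the 32 with each chemical, where 0.172% of all genes passed with fenbuconazole, 0.92% with imazalil and 0% with 2,4-D. The unadjusted counts for the slope were 7, 8 and 3, or 21.9%, 25% and 9.38% of the 32, where 8.38%, 13.5% and 6.26% of all genes passed.

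**Figure D1:**
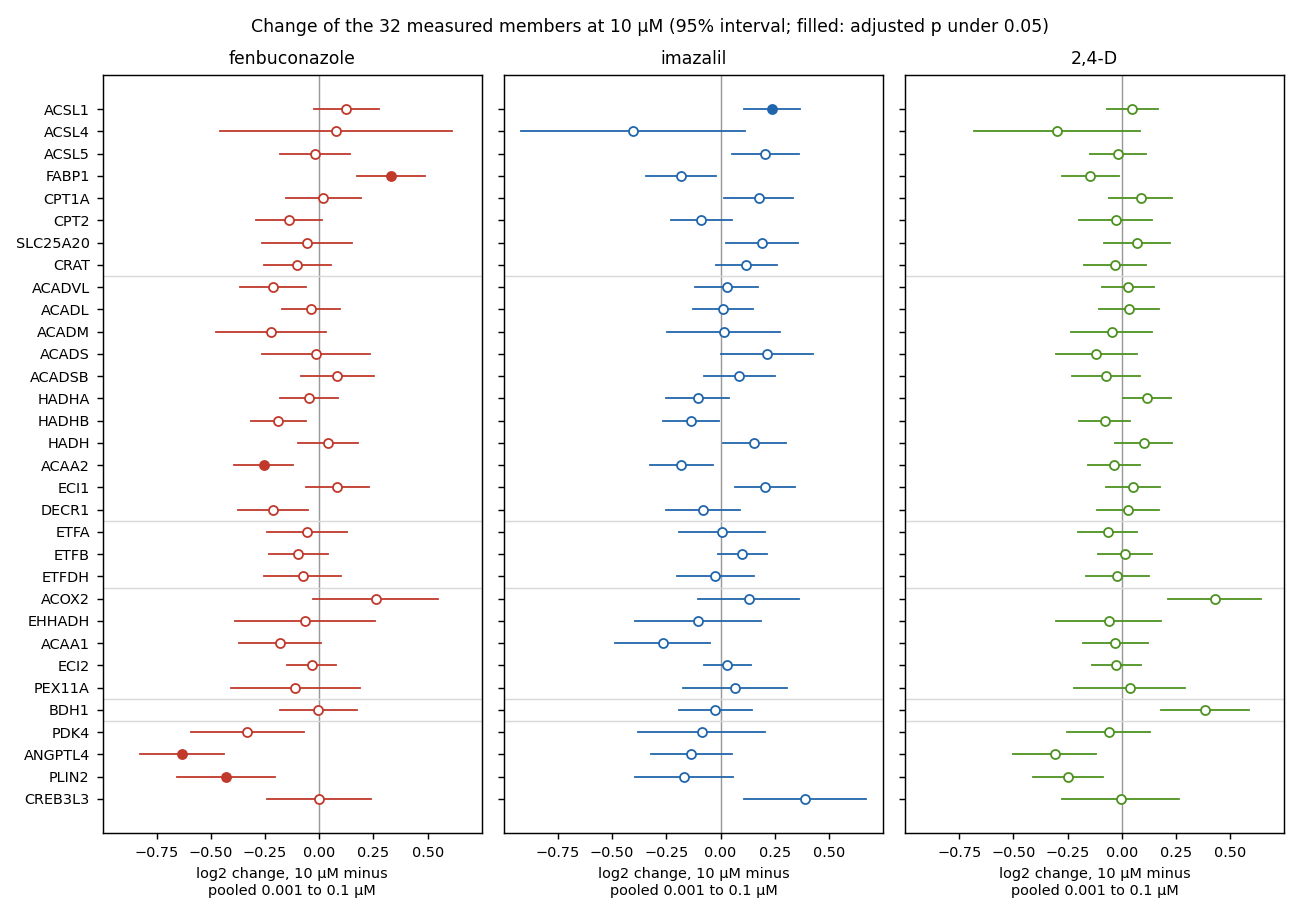
Each point is the log2 change of 1 gene at 10 µM (3 arrays) from the pooled 0.001 to 0.1 µM arrays (15 arrays) of the same chemical, the bar its 95% interval from limma, and a filled point an adjusted p under 0.05; grey lines separate the groups of genes by role. ANGPTL4, PLIN2, ACAA2 and FABP1 are filled for fenbuconazole, ACSL1 for imazalil and no gene for 2,4-D.

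Among the PPARA targets of fuel control and lipid storage, ANGPTL4 encodes a secreted inhibitor of lipoprotein lipase that PPARA and fasting are known to raise. Its level in the DMSO arrays P1, P2 and P3 was 6.88, 6.52 and 6.69, and with 10 µM fenbuconazole it was 6.16, 6.01 and 6.13. All 3 exposed arrays lay below all 3 DMSO arrays and below the 24 arrays of the other fenbuconazole concentrations, which lay between 6.30 and 7.00. The change was -0.60 ± 0.12 (SE, n = 3 against 3; 0.661 of the DMSO level on the linear scale; limma adjusted p = 0.0104) against DMSO and -0.63 ± 0.09 (adjusted p = 9.72e-05) against the pooled low concentrations. A second ANGPTL4 probe set fell by 0.75 and 0.81 in the same comparisons. Without the P1, P2 or P3 arrays the adjusted p against DMSO was 0.207, 0.414 and 0.0691, so that the call against DMSO was lost each time, and against the low concentrations it was lost without P2 (0.0732). Such fits hold fewer arrays per group, so that here and below a call can be lost though the change is no smaller. The ANGPTL4 call against DMSO was also lost in a fit of only the groups compared.

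ANGPTL4 was 6.60, 6.30 and 6.35 with 10 µM imazalil, where the DMSO arrays of that set gave 6.80, 6.62 and 6.62. It was 6.77, 6.31 and 6.49 with 10 µM 2,4-D, against 6.97, 6.69 and 6.80. The changes against DMSO were -0.26 (limma adjusted p = 0.44) and -0.30 (adjusted p = 0.802), and neither passed. At 10 µM, fenbuconazole minus imazalil was -0.33 (95% interval -0.57 to -0.10, adjusted p = 0.364) and fenbuconazole minus 2,4-D -0.30 (-0.54 to -0.06, adjusted p = 0.472), so the lower ANGPTL4 of fenbuconazole was not shown to differ from that of the other chemicals after adjustment.

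PLIN2 encodes the coat protein of lipid droplets in hepatocytes. It was 10.96, 10.80 and 10.74 in the DMSO arrays and 10.70, 10.04 and 10.59 with 10 µM fenbuconazole, with P2 the lowest. The 15 low-concentration arrays spanned 10.64 to 11.05 with a median of 10.85, and P1 lay within them. The change was -0.43 ± 0.11 (limma adjusted p = 0.0312) against the low concentrations and -0.39 ± 0.14 (adjusted p = 0.371) against DMSO, and the first lost its call without P1, P2 or P3 (adjusted p = 0.0746, 0.651 and 0.165). The PLIN2 call against the low concentrations was also lost with only the groups compared and with the mean of the probe sets. A second, dim probe set of PLIN2 (mean level 2.57) moved by 0.10 and 0.02. PLIN2 was -0.17 with imazalil (adjusted p = 0.574) and -0.25 with 2,4-D (adjusted p = 0.197) against the low concentrations, so the point estimates of all 3 chemicals were below 0.

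The other measured genes of this group were PDK4, which restrains pyruvate oxidation, and CREB3L3, a liver transcription factor of fasting metabolism. PDK4 and CREB3L3 passed no test with any chemical. Over the 4 genes of the group the change against the low concentrations ran from -0.63 to 0.00 with fenbuconazole, from -0.17 to 0.39 with imazalil and from -0.31 to -0.01 with 2,4-D; the upper end for imazalil was CREB3L3, named after its values were seen.

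**Figure D2:**
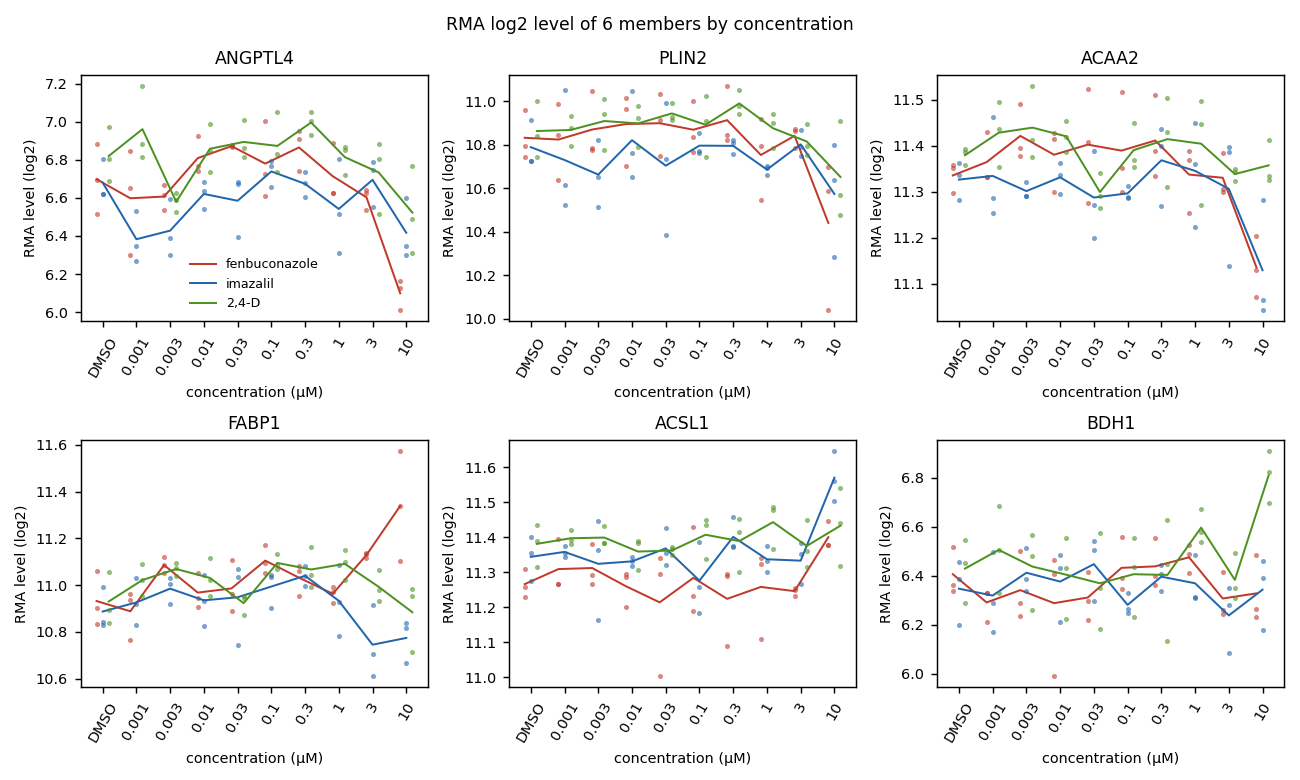
RMA level (log2) of the 6 genes that passed a test, by concentration (µM, equal steps, not to scale) with DMSO at the left; points are single arrays (3 per concentration), lines join the means, and colours are the chemicals, each normalized as its own set with the same DMSO arrays. At 10 µM, ANGPTL4 with fenbuconazole lies at 6.01 to 6.16 and FABP1 at 11.10 to 11.57, while BDH1 with 2,4-D lies at 6.70 to 6.91.

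Of the genes of activation and entry, FABP1, the fatty acid binding protein of the liver cytosol and a known PPARA target, separated fenbuconazole from the other chemicals. Its DMSO arrays gave 10.90, 10.83 and 11.06, and with 10 µM fenbuconazole it was 11.57, 11.10 and 11.34. All 3 exposed arrays lay above the DMSO arrays, with P1 the highest, though the lowest of them (11.10) lay within the 10.77 to 11.17 of the low concentrations. FABP1 was 0.33 ± 0.08 higher than at the low concentrations (1.26-fold, limma adjusted p = 0.0145), while the change of 0.41 ± 0.10 against DMSO had an adjusted p of 0.0509. The change against DMSO passed in a fit with a block for the P code. At 3 µM FABP1 was 11.14, 11.14 and 11.12, a change of 0.20 against DMSO (adjusted p = 0.774). The call against the low concentrations was lost without P1 (limma adjusted p = 0.432), without P3 (0.213) and in a fit of only the groups compared. A second probe set moved by 0.21 against the low concentrations and 0.34 against DMSO.

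With 10 µM imazalil FABP1 was 10.82, 10.67 and 10.84, and with 10 µM 2,4-D 10.71, 10.95 and 10.98. Set against the DMSO mean of its own set, every array of both groups lay below all 3 fenbuconazole arrays. Fenbuconazole minus imazalil was 0.52 (95% interval 0.34 to 0.70, limma adjusted p = 0.000102), and fenbuconazole minus 2,4-D was 0.45 (0.28 to 0.63, adjusted p = 0.000899). Imazalil minus 2,4-D was -0.07 (-0.24 to 0.11, adjusted p = 0.917). At 3 µM fenbuconazole minus imazalil was 0.34 (0.16 to 0.52, adjusted p = 0.0881). Without P1 the 10 µM differences had adjusted p = 0.0683 and 0.453, and without P3 the difference from 2,4-D had 0.0538, so that the call was lost in each of these fits.

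ACSL1, the main acyl-CoA synthetase of the liver and also a known PPARA target, was higher with imazalil. It was 11.40, 11.36 and 11.27 in the DMSO arrays of that set and 11.65, 11.56 and 11.50 at 10 µM. The 3 arrays at 10 µM lay above the DMSO arrays and above the 24 arrays at 0.001 to 3 µM, which spanned 11.16 to 11.46. The change was 0.24 ± 0.06 (1.18-fold, limma adjusted p = 0.0353) against the low concentrations and 0.23 ± 0.08 (adjusted p = 0.279) against DMSO. The call was lost without P1, P2 or P3 (limma adjusted p = 0.348, 0.326 and 0.27), and a second bright probe set moved by 0.05 and 0.19. The ACSL1 call was lost too with only the groups compared and with adjustment over all probe sets.

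ACSL4, which prefers arachidonate, had the largest within-group spread of the 32 genes in each set, up to a pooled SD of 0.466. With 10 µM fenbuconazole it was 8.88, 7.13 and 7.35 beside 7.58, 6.80 and 7.88 in DMSO, groups that overlap, and its largest change against DMSO at 3 µM (0.64, adjusted p = 0.784) passed no test. The other 5 measured genes of the group, ACSL5, CPT1A, CPT2, SLC25A20 and CRAT, passed no test. Over all 8 genes the change at 10 µM against DMSO ran from -0.19 to 0.41 with fenbuconazole, -0.13 to 0.23 with imazalil and -0.08 to 0.05 with 2,4-D.

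Of the 11 genes of mitochondrial beta-oxidation, ACAA2, the thiolase of the last step, was the one that passed a test. It was 11.36, 11.30 and 11.35 in DMSO and 11.13, 11.07 and 11.20 with 10 µM fenbuconazole. The 3 exposed arrays lay below the DMSO arrays and below the 24 arrays of the other concentrations, which spanned 11.25 to 11.52. The change was -0.26 ± 0.07 (0.837 of the low-concentration level, limma adjusted p = 0.0346), and -0.20 ± 0.09 against DMSO (adjusted p = 0.54). The call was lost without P1, P2 or P3 (limma adjusted p = 0.275, 0.514 and 0.232), after subtraction of array medians (0.0637) and with adjustment over all probe sets (0.056). The ACAA2 call was lost as well with only the groups compared and with the mean of the probe sets. A second, dim probe set (mean level 3.84) moved by -0.03.

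ACAA2 was 11.06, 11.04 and 11.28 with 10 µM imazalil, a change of -0.20 against DMSO (limma adjusted p = 0.462) and -0.18 against the low concentrations (0.227). The difference of fenbuconazole minus imazalil at 10 µM was 0.00 with an interval of -0.16 to 0.15. With 2,4-D it was 11.41, 11.33 and 11.33, and fenbuconazole minus 2,4-D was -0.18 (-0.33 to -0.03, adjusted p = 0.573).

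ACADVL, the dehydrogenase of very long chains, was 10.02, 9.83 and 10.11 with 10 µM fenbuconazole and 10.35, 10.28 and 10.16 in DMSO, groups that do not overlap, but its change of -0.28 had an adjusted p of 0.324. ECI1, an isomerase for unsaturated chains, was 8.06, 8.22 and 8.15 with 10 µM imazalil and 7.96, 7.86 and 7.82 in DMSO, a change of 0.26 (adjusted p = 0.214), and at 3 µM it differed by 0.27 (adjusted p = 0.803). Its slope over imazalil concentrations was 0.06 per 10-fold step (limma adjusted p = 0.0829). The remaining 8 genes (ACADL, ACADM, ACADS, ACADSB, HADHA, HADHB, HADH and DECR1) passed no test. HADHA was read through the same probe set with fenbuconazole and 2,4-D and through another with imazalil. Over the 11 genes the change at 10 µM against DMSO ran from -0.28 to 0.08 with fenbuconazole, with 3 of 11 above 0, from -0.20 to 0.26 with imazalil, with 6 of 11 above 0, and from -0.11 to 0.11 with 2,4-D, with 5 of 11 above 0.

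The electron carriers ETFA, ETFB and ETFDH passed no test with any chemical. Their changes at 10 µM against DMSO lay between -0.13 and -0.05 with fenbuconazole, between 0.05 and 0.08 with imazalil and between -0.03 and 0.04 with 2,4-D. ETFB was 9.54, 9.34 and 9.51 with 10 µM fenbuconazole beside 9.66, 9.53 and 9.59 in DMSO, and ETFDH was 7.89, 7.61 and 7.98 with 10 µM imazalil beside 7.78, 7.57 and 7.91. Both pairs of groups overlap.

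**Figure D3:**
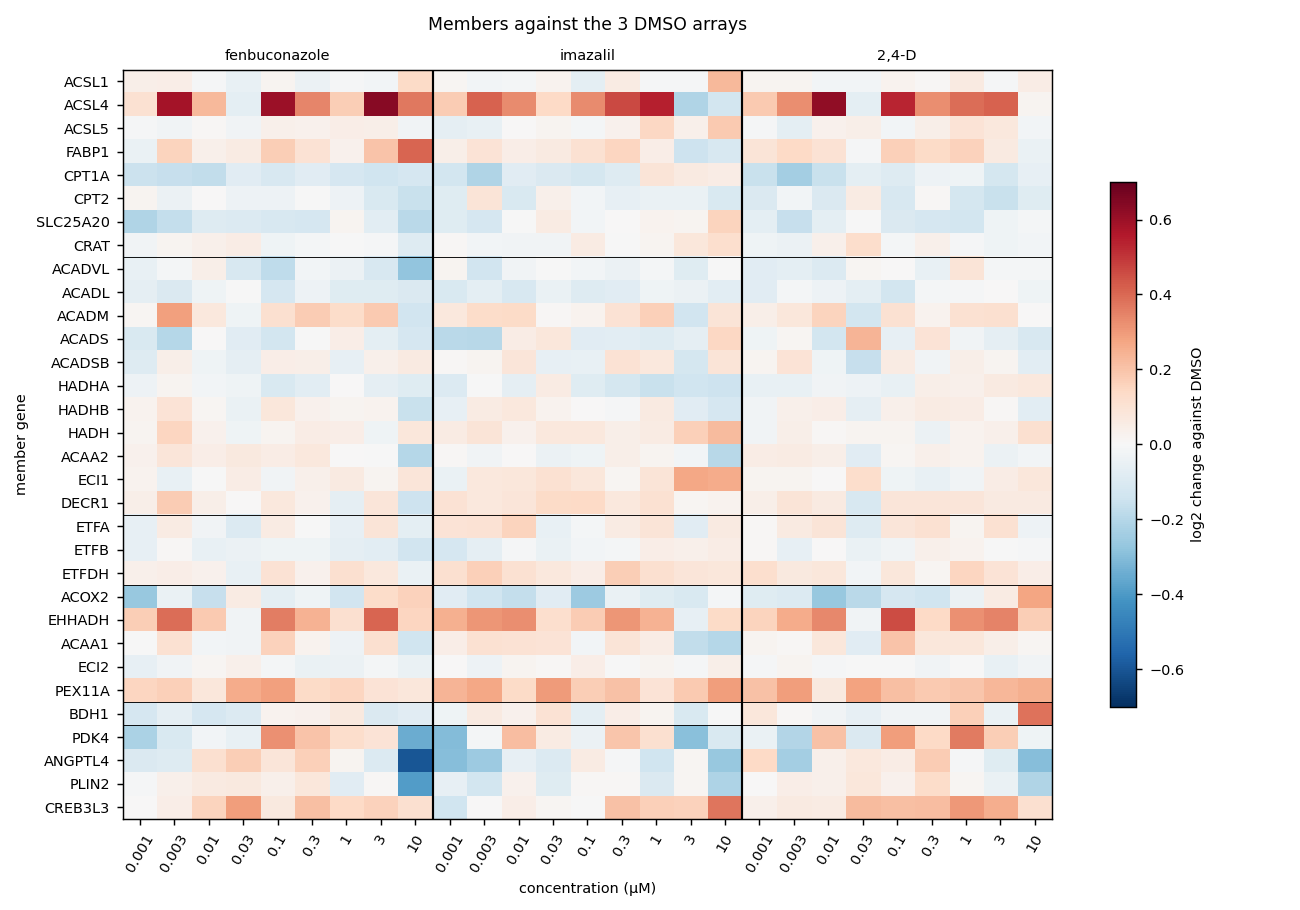
Colour gives the log2 change of each of the 32 genes (rows, by role) from the mean of the 3 DMSO arrays at each concentration (columns, µM) of each chemical; colours saturate at 0.7. ANGPTL4 at 10 µM fenbuconazole (-0.60) is the 1 cell that passed the test, and ACSL4, the gene with the largest spread, is strongly coloured at several low concentrations without passing it.

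The peroxisomal genes did not pass a test in the reported fits either. ACOX2, the oxidase of branched chains and bile acid intermediates, was 6.33, 5.90 and 6.02 with 10 µM 2,4-D, above all 15 low-concentration arrays, which spanned 5.35 to 5.84, and overlapping the DMSO arrays at 6.05, 5.60 and 5.76. Its change was 0.43 ± 0.10 (limma adjusted p = 0.0662) against the low concentrations and 0.28 ± 0.14 (adjusted p = 0.881) against DMSO. The change against the low concentrations passed in a fit with a block for the P code. PEX11A, a peroxisome division protein and known PPARA target, was 6.74, 6.84 and 6.90 with 10 µM imazalil beside 6.41, 6.51 and 6.68 in DMSO, a change of 0.29 (adjusted p = 0.535). Against the low concentrations PEX11A was 0.07 higher with imazalil (adjusted p = 0.883), so the estimate depended on the reference. EHHADH, ACAA1 and ECI2, which continue peroxisomal oxidation, also passed no test, and the 5 genes ran from -0.14 to 0.16 with fenbuconazole, -0.20 to 0.29 with imazalil and -0.03 to 0.28 with 2,4-D at 10 µM against DMSO.

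BDH1, the mitochondrial enzyme that reduces acetoacetate to 3-hydroxybutyrate, was higher with 2,4-D than with fenbuconazole. It was 6.91, 6.70 and 6.82 with 10 µM 2,4-D, above the DMSO arrays at 6.55, 6.29 and 6.45 and above all 24 arrays at lower concentrations, of which the highest was 6.68. The change was 0.38 ± 0.10 (limma adjusted p = 0.0847) against the low concentrations and 0.38 ± 0.13 (adjusted p = 0.661) against DMSO. With a block for the P code the change against the low concentrations passed. With fenbuconazole BDH1 was 6.23, 6.26 and 6.49, and with imazalil 6.18, 6.39 and 6.46, both overlapping their DMSO arrays. Fenbuconazole minus 2,4-D at 10 µM was -0.46 (95% interval -0.69 to -0.23, limma adjusted p = 0.0352) and imazalil minus 2,4-D -0.38 (-0.61 to -0.16, adjusted p = 0.107). The first call was lost without P1, P2 or P3 (limma adjusted p = 0.396, 0.251 and 0.101). It was also lost when taken as a difference of the changes from the low concentrations. A dim second probe set (mean level 2.19) moved by 0.04 with 2,4-D.

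In all, 3 pairs of chemicals were compared at 10 µM and 3 at 3 µM, each chemical set against its own DMSO mean first because the sets were normalized separately, and each pair adjusted over all genes on its own. At 10 µM the triazole fenbuconazole and the imidazole imazalil differed in 1 of 32 genes (FABP1) where 0.516% of all genes passed, fenbuconazole and 2,4-D in 2 of 32 (FABP1, BDH1) where 0.551% passed, and imazalil and 2,4-D in 0 of 32 where 0.779% passed. The unadjusted counts were 9, 7 and 5 of 32, or 28.1%, 21.9% and 15.6%, where 7.37%, 7.14% and 8.96% of all genes passed. The median difference of the 32 genes for fenbuconazole minus imazalil was -0.14, with 5 of 32 above 0, beside -0.01 over all genes, and all 11 genes of mitochondrial beta-oxidation had a difference below 0, from -0.27 to 0.00. Each gene was read here through its brightest probe set over all arrays; for HADHA that gave -0.08, while through the probe set of each chemical's own set its changes from DMSO were -0.08 with fenbuconazole and -0.14 with imazalil, so that the sign for HADHA depended on the probe set. At 3 µM 0 of 32 genes passed in each pair, where 0.0405% of all genes passed for fenbuconazole against imazalil, 0.00506% for fenbuconazole against 2,4-D and 0.0708% for imazalil against 2,4-D, and the unadjusted counts were 9, 0 and 5, or 28.1%, 0% and 15.6%, where 12.9%, 3.18% and 8.87% of all genes passed.

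The rest of the pathway was read from 4 further lists, of 34 other oxidation genes (29 measured), 5 other ketone body genes (3 measured), 13 receptors and coregulators (11 measured) and 39 other PPARA targets and genes of lipid storage (38 measured). Of the other oxidation and ketone body genes, 0 passed at 10 µM against DMSO with any chemical. Against the low concentrations 1 of the 29 other oxidation genes passed with fenbuconazole and 1 with imazalil, where 2.05% and 2.71% of all genes passed. PECR, a peroxisomal reductase of unsaturated chains, fell by 0.26 with fenbuconazole (limma adjusted p = 0.0398) and MLYCD, which removes the CPT1 inhibitor malonyl-CoA, rose by 0.28 with imazalil (adjusted p = 0.0438). Neither call held when any 1 of the P codes was left out, with limma adjusted p of 0.271, 0.695 and 0.114 for PECR and 0.127, 0.504 and 0.354 for MLYCD (without P1, P2 and P3).

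PPARA itself passed no test after adjustment. Its level was 6.90, 6.93 and 6.97 in the DMSO arrays and 7.19, 7.30 and 7.23 with 10 µM fenbuconazole, and in the imazalil set 6.83, 6.85 and 6.93 beside 7.25, 7.21 and 7.25. In both sets the exposed arrays lay above the shared DMSO arrays, with changes of 0.31 (limma adjusted p = 0.113) and 0.36 (adjusted p = 0.0996). Against the low concentrations, which spanned 6.97 to 7.30 and 6.83 to 7.28 and overlapped the exposed arrays, the changes were smaller, 0.15 (adjusted p = 0.366) and 0.21 (adjusted p = 0.188). With 2,4-D it was 7.14, 7.29 and 7.16 beside 6.97, 7.03 and 7.11, a change of 0.16 (adjusted p = 0.967). LPIN1, a phosphatidate phosphatase and coactivator of PPARA, was the 1 gene of the 11 that passed against DMSO. It passed with 10 µM fenbuconazole, where 0.607% of all genes passed, at 8.77, 8.98 and 8.96 beside 8.00, 8.25 and 8.21 in DMSO. LPIN1 rose by 0.75 (adjusted p = 9.93e-05), and fenbuconazole minus imazalil was 0.44 (95% interval 0.25 to 0.62, adjusted p = 0.00879). The rise had a limma adjusted p of 0.0576 without P2, and the difference between the azoles 0.0559, 0.359 and 0.307 without P1, P2 and P3.

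Of the 38 other PPARA targets and lipid storage genes, 2 rose and 4 fell with 10 µM fenbuconazole against DMSO, 0 rose and 4 fell with imazalil, and 0 passed with 2,4-D, where 0.607%, 0.819% and 0% of all genes passed. The list was chosen with earlier results of these data known, so its counts here and below do not test it against such shares. The 4 that fell were CYP4A11, CYP4A22, TXNIP and CIDEB with each of the azoles. CYP4A11, a fatty acid omega-hydroxylase, was 6.82, 6.72 and 6.72 in DMSO and 5.92, 5.16 and 5.86 with 10 µM fenbuconazole, and in the imazalil set 6.51, 6.46 and 6.41 beside 4.92, 4.69 and 5.35. The groups do not overlap, and CYP4A11 fell by 1.11 (limma adjusted p = 9.73e-06) and 1.48 (adjusted p = 2.17e-07). CYP4A22, a near copy whose probes may share its transcripts, fell by 0.69 and 1.38, and the fall was larger with imazalil by 0.69 (fenbuconazole minus imazalil, interval 0.37 to 1.02, adjusted p = 0.0179). The call of CYP4A11 held without each P code with either azole, while that of CYP4A22 with fenbuconazole was lost without P1 or P2 (limma adjusted p = 0.149 and 0.692) and its difference between the azoles without P1 or P3 (adjusted p = 0.333 and 0.239). Taken as a difference of the changes from the low concentrations, that of CYP4A22 was 0.54 (adjusted p = 0.347). In a fit of the 10 µM and DMSO arrays of fenbuconazole alone, CYP4A11 had an adjusted p of 0.0784, CYP4A22 0.569 and LPIN1 0.0619, so that these calls were lost.

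TXNIP, a glucose-responsive inhibitor of thioredoxin, was 7.12, 6.98 and 7.50 with 10 µM fenbuconazole beside 7.99, 7.82 and 7.85 in DMSO and fell by 0.69 (limma adjusted p = 0.00459), and by 0.81 with imazalil (adjusted p = 0.000665). CIDEB, a lipid droplet protein of hepatocytes, fell by 0.58 (adjusted p = 0.00396) and 0.61 (adjusted p = 0.00426). The 2 that rose with fenbuconazole were TRIB3, known as a gene of the amino acid and endoplasmic reticulum stress response, by 1.11 (adjusted p = 1.19e-09), and FADS1, a desaturase also raised by SREBP, by 0.41 (adjusted p = 0.0472). Against the low concentrations the counts were 2 higher and 9 lower with fenbuconazole, 1 higher and 8 lower with imazalil, and 0 higher and 2 lower with 2,4-D (PDK1 and MBL2, by 0.92 and 0.60), where 2.05%, 2.71% and 0.445% of all genes passed. Of these calls that of TRIB3 held without each P code. With fenbuconazole those of TXNIP and CIDEB were lost without P1 (limma adjusted p = 0.329 and 0.260) or P2 (0.328 and 0.418), and that of FADS1 without any 1 of the codes (0.462, 0.938 and 0.181). In the fit of the 10 µM and DMSO arrays of fenbuconazole alone TXNIP, CIDEB and FADS1 had limma adjusted p of 0.261, 0.279 and 0.533, so that these calls were lost. With imazalil TXNIP was lost without P2 (0.181) and CIDEB without P1 or P2 (0.105 and 0.328). CIDEB had 0.0617 in a fit of the 10 µM and DMSO arrays of imazalil alone. With 2,4-D PDK1 was lost without P2 or P3 (0.102 and 0.0772) and MBL2 without P1 or P2 (0.214 and 0.188).

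**Figure D4:**
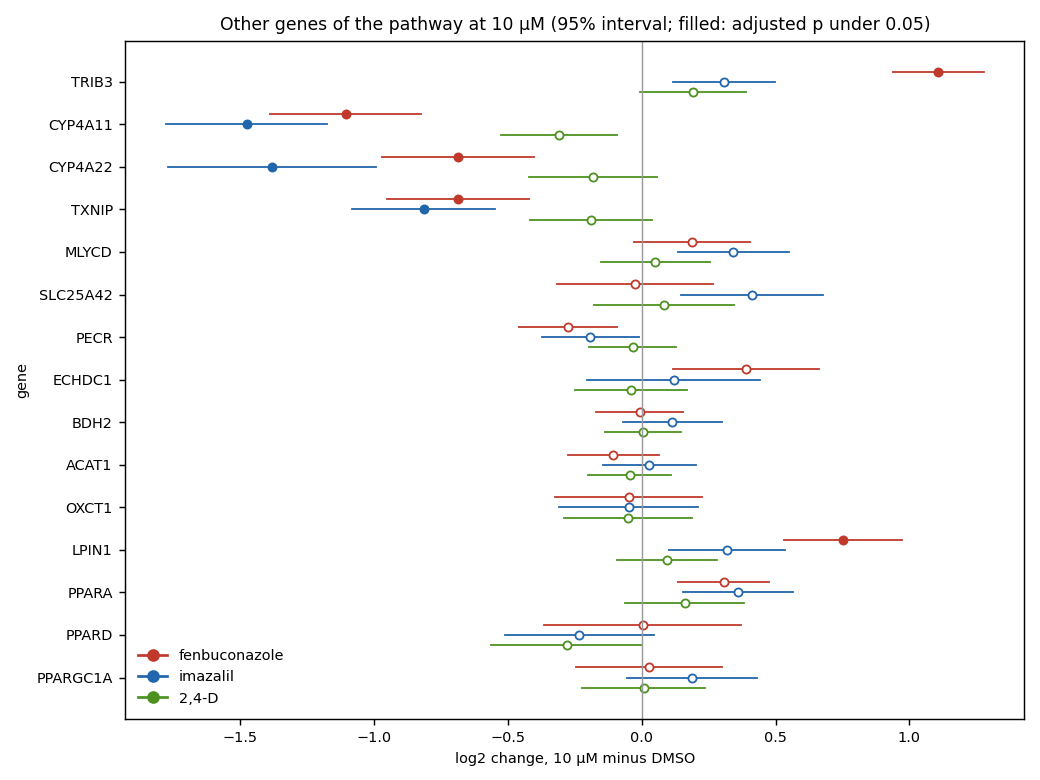
Log2 change at 10 µM from DMSO (3 arrays each) with the 95% interval from limma. The 15 genes are those of these lists with the smallest adjusted p in this comparison with any chemical (up to 4 per list). Filled points have an adjusted p under 0.05 and colours are the chemicals. CYP4A11, CYP4A22 and TXNIP lie below 0 with both azoles, and TRIB3 (1.11) and LPIN1 (0.75) lie above 0 and pass with fenbuconazole.

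Over the 5 lists of cell type markers, the median change of a list at 10 µM against DMSO ran from -0.08 to 0.16 with fenbuconazole, from -0.15 (mesenchyme) to 0.02 with imazalil and from -0.05 to 0.08 with 2,4-D. Against the low concentrations it ran from -0.12 to 0.12, from -0.27 (mesenchyme) to 0.02 and from -0.12 to 0.09. The hepatocyte markers had a median change against DMSO of -0.08 with fenbuconazole, -0.06 with imazalil and -0.02 with 2,4-D over 14 of 15 measured genes, and their mean level per array was 11.38 to 11.44 in the DMSO arrays and 11.27 to 11.50 with 10 µM fenbuconazole. Of these 14 against DMSO, CYP3A4, a drug-metabolizing enzyme, rose with both azoles (by 2.23 and 2.70), and AHSG and CYP2E1 fell with both, by 0.83 and 0.62 with fenbuconazole. Of the 9 measured biliary markers, 1 (SPP1) rose with each azole, by 0.53 with fenbuconazole, and their mean level was 5.44 to 5.49 in the DMSO arrays and 5.45 to 5.63 with 10 µM fenbuconazole. Of 8 mesenchyme, 5 endothelium and 5 immune markers, 0 passed against DMSO with fenbuconazole, and COL3A1 fell and CD14 rose with imazalil. Over all genes 0.607% passed against DMSO with fenbuconazole, 0.819% with imazalil and 0% with 2,4-D. With the mean of its probe sets the COL3A1 change with imazalil was -0.27 (limma adjusted p = 0.188), so that its call was lost. Without P2 the calls of AHSG, CYP2E1 and SPP1 with fenbuconazole were lost (limma adjusted p = 0.977, 0.413 and 0.305), as were those of AHSG and COL3A1 with imazalil (0.0749 and 0.0509). Without P1 AHSG, CYP2E1 and SPP1 were also lost with fenbuconazole (0.0939, 0.128 and 0.287), and without P3 AHSG and SPP1 with fenbuconazole (0.130 and 0.0668) and COL3A1 with imazalil (0.0769). CYP3A4 passed without each code with both azoles. With 2,4-D 0 markers of any list passed against DMSO. Against the low concentrations 2.05%, 2.71% and 0.445% of all genes passed (fenbuconazole, imazalil, 2,4-D). Against that reference the same markers passed with imazalil. With fenbuconazole APOC3 of hepatocytes and DCN of mesenchyme also fell, by 0.32 and 0.53. With 2,4-D CYP3A4 rose by 0.55 and CD24 of the biliary list fell by 0.39. Of these, DCN was lost without P2 (limma adjusted p = 0.757), CYP3A4 without P2 or P3 (0.219 and 0.313), and APOC3 and CD24 without any 1 of the codes (0.110, 0.834 and 0.100; 0.0636, 0.268 and 0.220). The part of these markers in the changes above was not tested.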

How the data were processed

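RNA of HepaRG cells was measured on Affymetrix HT HG-U133+ PM arrays. Per the labels, the authors deposited RMA log2 values for 54715 probe sets, in which each chemical formed a set of its own together with the common 3 DMSO arrays (90 columns). RMA and Partek come from the submitters' processing notes, without versions. Quantile normalization in RMA can hide a shift shared by all genes, and precision is limited by 3 arrays per group.

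Groups were taken from the labels. Of the probe sets, 40920 carried 1 symbol, 864 several and 12931 none in the platform annotation, and each gene was represented by its probe set with the highest mean in a set, or over all arrays where chemicals were compared. Changes were fitted with limma 3.58.1 in R 4.3.3 (lmFit on group means, eBayes, 30 arrays per chemical sharing 1 estimate of spread), with Benjamini-Hochberg adjustment over 19774 genes and a threshold of 0.05. Chemicals were compared in 1 fit of the 81 treated columns after subtraction of each set's DMSO mean. Intervals are 95%. The code was tested on simulated data. Plots used Python 3.11.15 with matplotlib 3.10.9.

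The members and gene lists were chosen with earlier results of these data known. Members past a test, and the 2 with the largest change at 10 µM in each role, are given in full, and up to 4 genes per further list, others being marked where named. Alternatives were a block for the P code or title number, leaving out each P code, the mean of a gene's probe sets, leaving out dim probe sets, subtracting array medians, an intensity trend in eBayes, adjustment over all probe sets, only the groups compared, the slope without 10 µM, and the difference of changes from the low concentrations. Leaving out 2 arrays of 2,4-D (0.001 and 0.003 µM) whose labels share a sample code was added after seeing the data.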

Additional observations from a re-analysis of the deposited data

How the results depend on the processing

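Of 127 alternative counts for the 12 comparisons, 94 stayed within 1.5 times the reported count and no named change reversed; of 92 alternative values for the calls of the 34 listed genes, 34 lost the call, as did 72 of 338 for the other named genes. With fenbuconazole against DMSO, 1 gene became 2 with the replicate block (P code), without dim probe sets or with an intensity trend (FABP1 added), and 0 with only the groups compared; leaving out each P code gave 0 to 0. Against the low concentrations, 4 became 2 with the mean of probe sets and 1 with only the groups compared, and leaving out each P code gave 1 to 1. With imazalil, 0 against DMSO became 1 with an intensity trend, and 1 against the low concentrations became 0 with adjustment over all probe sets, with only the groups compared, and 0 to 0 leaving out each P code. The 0 slopes of imazalil became 1 with the replicate block (CREB3L3), 2 with the mean of probe sets (ECI1, ETFB), 1 without dim probe sets (ECI1) and 1 with an intensity trend (CPT1A). The 0 of 2,4-D against the low concentrations became 2 with the replicate block (ACOX2, BDH1), 1 with the mean of probe sets, 1 without dim probe sets and 3 with an intensity trend. Fenbuconazole against imazalil, 1, became 2 with the replicate block (SLC25A20 added), 2 with the mean of probe sets, and 0 to 1 leaving out each P code; against 2,4-D, 2 became 1 as a difference of changes and 0 to 1 leaving out each P code. Where no construction of the setting shows the cause, the cause was not tested. Same-coded arrays correlated in their deviations with a mean r of 0.0979, 0.094 and 0.117 (fenbuconazole, imazalil, 2,4-D), beside -0.0489, -0.0468 and -0.0582 to other codes. Of 135 same-code pairs, 73, 70 and 81 were over 0.1. For 22, 23 and 26 of 30 arrays the most similar array of another group had the same code. Arrays of the same code were thus more alike, but the labels do not say what the code marks. The reported fits hold no term for it, so calls that appear only with the block are not counted in them. Over all genes the block moved the calls at 10 µM from 120 to 153, 162 to 244 and 0 to 0 against DMSO, from 406 to 522, 536 to 705 and 88 to 186 against the low concentrations, and for the slope from 34 to 53, 182 to 268 and 0 to 26. A block on the title number, and leaving out the arrays with a shared sample code, changed no count of genes.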
